A study of Homo sapiens with 18 samples.

Results

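The comparison described here is between 2 sorted populations of WM989 cells, a human melanoma line in long use, both grown for 7 days in 4 µM EPZ5676. EPZ5676 (pinometostat) is an inhibitor of DOT1L, the enzyme that methylates lysine 79 of histone H3. One population was sorted for high levels of both NGFR and EGFR and the other for low levels of both, with 3 libraries of poly(A) RNA each. The members were taken by sample name, so they are 6 of the 18 libraries of the series. The remaining libraries are unsorted cells under EPZ5676 and unsorted, high and low cells under DMSO, the solvent control, for the same 7 days, again with 3 libraries each. Every library comes from this single line and the labels name no genetic change in any group. The labels give no gate for the sort and do not say whether the libraries of a group came from separate cultures, so the p-values below measure the spread between these libraries only, which may be technical.

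Melanocytes and most melanoma cells run a pigment program under the transcription factor MITF, with SOX10 above it. A small fraction of cells in melanoma cultures departs from it and shows high NGFR, the low-affinity neurotrophin receptor of neural crest cells, and high EGFR, the receptor of epidermal growth factor. Such cells are known from work on resistance to BRAF inhibitors, where expression of receptors like AXL, matrix proteins and AP-1 factors marks cells that survive the drug.

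The 6 libraries held 14153173 to 23756040 reads on genes. Reads on no annotated feature took 12.8% to 23.9% of a library's total, and that share was over 16% in high replicates 1 and 2 and in low replicate 1. Among the sorted DMSO libraries only high replicate 3 was over 16%, at 21.4%. The share was thus uneven between the sorts and between the treatments, though each held such libraries. Leaving out the libraries over 16% keeps replicate 3 as the only EPZ5676 high library, so every result below from that setting rests on it for the high cells. Levels are normalised counts (CPM, reads of a gene per 1e6 reads on genes) scaled with TMM factors, differences are log2 fold changes of high over low cells from edgeR's quasi-likelihood model with their standard errors (SE), and a gene was called where its Benjamini-Hochberg adjusted p was under 0.05. The model was fitted to the 12 sorted libraries of both treatments, which share 1 estimate of the spread. The unsorted libraries were left out because a DMSO one was known from earlier results of these data to stand between the sorts. Such a library was taken to widen the spread of genes that differ between the sorts, which was not tested. The choice was thus made with the data known.

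NGFR RNA read 761, 761 and 639 CPM in the 3 high libraries and 3.62, 6.81 and 1.04 CPM in the 3 low libraries. EGFR RNA read 61.9, 55.5 and 68.5 CPM in high and 4.25, 4.65 and 4.78 CPM in low cells. The RNA of both sorted receptors therefore stood with the labels in every library, with log2 differences of 7.52 ± 0.49 for NGFR and 3.75 ± 0.12 for EGFR (adjusted p = 1.48e-06 and 5.21e-18, edgeR). As these are the receptors the cells were sorted on, the values check the sort and are not results. DOT1L, the target of the inhibitor, is blocked as an enzyme and not removed as RNA; its level was 183, 184 and 178 CPM in high and 119.8, 117 and 113 CPM in low cells, a difference of 0.64 ± 0.05 (adjusted p = 1.74e-11, edgeR).

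Of 17821 genes tested, 4840 (27.2%) were higher and 4333 (24.3%) lower in high cells, together 51.5%. With a change of at least 2-fold asked for as well, 1847 genes (10.4%) were higher and 866 (4.86%) lower. At least 16-fold, the counts were 305 higher and 17 lower, so that the large differences lay mostly on the side of higher RNA in the NGFR and EGFR high cells. In 5661 genes (31.8%) all 3 high libraries stood above all 3 low ones and in 5202 (29.2%) all stood below, without overlap. The median log2 difference over all genes tested was 0.02. These shares are the background for every count of a gene list below. Since each library is RNA of many cells, fewer cells with a transcript and less of it per cell cannot be told apart.

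The 15 genes with the largest increase had a mean of at least 5 CPM in high cells and no overlap between the groups. Among those with enough reads in low cells for a ratio were ITGA11, a collagen-binding integrin chain, the cytokine IL11, the fibrillar collagen gene COL5A1, the collagenase gene MMP1 and the receptor tyrosine kinase gene AXL. ITGA11 read 47, 44.9 and 51.6 CPM in high and 0.139, 0.245 and 0.142 CPM in low libraries, a log2 difference of 7.98 ± 0.19 (adjusted p = 3.69e-22, edgeR). IL11 read 70.2, 58.7 and 65.7 against 0.766, 0.326 and 0.0947 CPM (7.50 ± 0.21, adjusted p = 2.8e-14, edgeR). MMP1 read 517, 491 and 548 against 4.46, 4.73 and 1.09 CPM (7.26 ± 0.39, adjusted p = 4.08e-07, edgeR). In each of these genes the high libraries were close to each other and the low libraries stood near the bottom of the range. AXL read 119, 112 and 83.3 CPM in high and 0.835, 1.06 and 0.379 CPM in low cells (7.08 ± 0.24, adjusted p = 8.55e-10, edgeR). Low replicate 3 was the lowest library for AXL, MMP1, IL11 and NGFR, but the highest of the low libraries for EGFR and COL5A1. IGFN1, SPOCK1 (testican-1, a proteoglycan), SERTAD4 and TMEM119 also had such ratios, with log2 differences of 7.53, 7.26, 7.21 and 7.16. The remaining gene with such a ratio was NGFR, on which the cells were sorted.

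In the other genes among the 15, the low libraries held 3 reads or fewer in all, so the summed reads are given in place of a fitted difference. CDH13, the gene of T-cadherin, had 490 reads in high and 1 in low cells, a depth-scaled ratio of 521.3 with an exact 95% binomial interval of 93.1 to 20630. AQP1, a water channel, had 1084 against 3 reads (ratio 384.4, interval 131.2 to 1867). CDCP1 had 351 against 1, CMKLR1, the chemerin receptor, 585 against 3, and MEGF10, an engulfment receptor, 527 against 3, with lower interval bounds of 66.6, 70.6 and 63.6. These intervals cover counting error only, since reads without molecular identifiers are not independent molecules.

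The 15 genes with the largest decrease included NMRK2, a nicotinamide riboside kinase, the melanocyte cation channel gene TRPM1, the retinoid-binding protein gene RLBP1, the V-ATPase subunit gene ATP6V0D2 and PMEL, whose product forms the fibrils on which melanin is laid down. PMEL read 834, 950 and 862 CPM in the high and 10350, 10353 and 10411 CPM in the low libraries, a log2 difference of -3.56 ± 0.05 (adjusted p = 9.85e-22, edgeR). RLBP1 read 7.59, 7.03 and 7.63 against 97.5, 106 and 104 CPM (-3.78 ± 0.08, adjusted p = 6.81e-24, edgeR). NMRK2 read 0.348, 0.221 and 0.569 against 13.3, 13.7 and 12.5 CPM (-5.06 ± 0.24, adjusted p = 2.83e-16, edgeR). PMEL and RLBP1 thus stayed detectable in every high library, at a small part of their level in low cells. The rest were PLB1 (a phospholipase), SYT7 (a calcium sensor of exocytosis), MYO16, GRID1, CASQ1 (calsequestrin), POU3F1 (a POU transcription factor), STUM, CFAP61, GALNT3 and DENND2D, with differences from -4.13 for PLB1 to -3.41 for DENND2D.

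**Figure D1:**
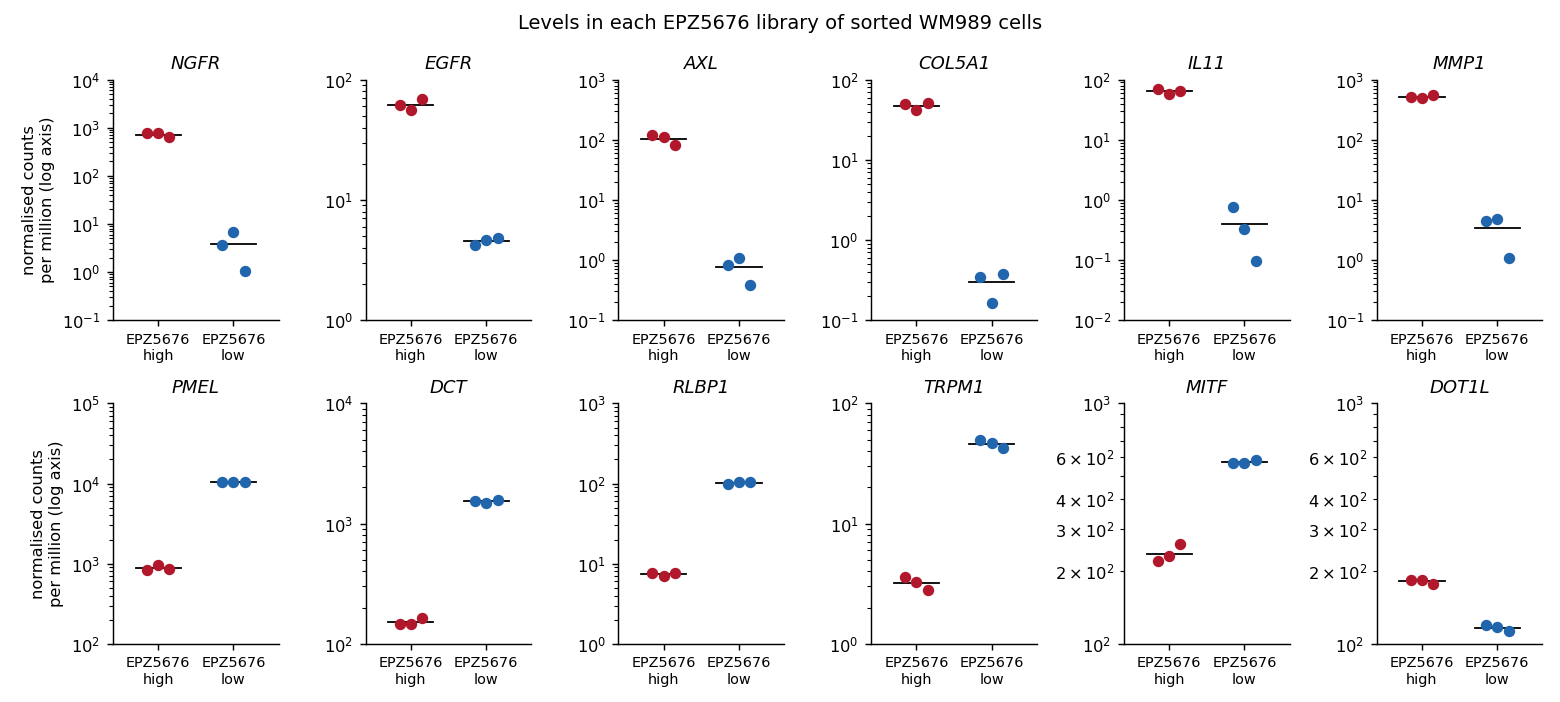
Normalised counts in CPM (log axis) of 12 genes in the 3 high (red) and 3 low (blue) EPZ5676 libraries; lines are group means. NGFR, EGFR, AXL, COL5A1, IL11 and MMP1 were higher and PMEL, DCT, RLBP1, TRPM1 and MITF lower in high cells with no overlap, and DOT1L differed by 0.64 on the log2 scale.

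The pigment genes were lower in the high cells. Of 15 tested genes of melanin synthesis and the melanosome matrix, 12 were lower, none was higher and 3 were not called, with a median log2 difference of -1.06 against 0.02 over all genes tested. DCT, the dopachrome tautomerase of the melanin pathway, read 145, 147 and 163 CPM in high and 1529.7, 1489.6 and 1566 CPM in low cells (-3.33 ± 0.06, adjusted p = 6.23e-26, edgeR). MLANA, a melanosome protein, read 61.7, 70.3 and 71.8 against 375, 389 and 376 CPM (-2.48 ± 0.07, adjusted p = 1.69e-16, edgeR), and the transporter SLC45A2 and the receptor GPR143 fell by 2.27 and 1.31 on the log2 scale. TYR, the tyrosinase gene, was named after its values were seen and read 77.7, 77.6 and 89.9 against 211, 222 and 232 CPM (-1.44 ± 0.10). The genes that were not called were ATP7A, GPNMB and OCA2, with differences of -0.16, 0.06 and 0.41.

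Of 16 tested melanocyte transcription factors 10 were lower and 5 higher. MITF read 220, 232 and 259 CPM in high and 568, 565 and 581 CPM in low cells (-1.27 ± 0.06, adjusted p = 7.34e-16, edgeR). IRF4, which acts with MITF on the tyrosinase gene, fell by 2.75 and SOX6 by 1.99 on the log2 scale. SOX10, also named after its values were seen, read 358, 351 and 411 against 795, 782 and 823 CPM (-1.10 ± 0.12, adjusted p = 3.05e-05, edgeR). Against the majority, ETV1, an ETS factor of the MAPK output, read 156, 154 and 169 against 50.8, 52.4 and 52.8 CPM (1.62 ± 0.06, adjusted p = 6.05e-18, edgeR), and TFE3, a relative of MITF, rose by 0.85. The direction was thus not shared by all factors of the list, while no gene of pigment synthesis was called higher.

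In the list of melanosome biogenesis and transport 11 of 20 genes were lower and 1 higher (median -0.22). HPS4, RAB27A and RAB38, which serve the making and transport of melanosomes, fell by 1.26, 1.58 and 1.71 on the log2 scale, and MYO5A, the motor that RAB27A recruits, read 261, 257 and 264 against 219, 229.7 and 237 CPM (0.19 ± 0.05, adjusted p = 0.00252, edgeR). Without the libraries over 16% reads on no feature 7 genes of this list were lower and MYO5A was not called (adjusted p = 0.158, edgeR). Among 25 growth receptors and late genes of melanocytes 17 were lower and 4 higher (median -1.12). TRPM1 read 3.59, 3.27 and 2.8 against 49.2, 46.5 and 42.5 CPM (-3.84 ± 0.14) and CEACAM1, an adhesion molecule, 13, 15.6 and 16.9 against 107, 113 and 118 CPM (-2.89 ± 0.10; adjusted p = 1.03e-17 and 1.14e-15, edgeR). PLXNC1, a semaphorin receptor, and KITLG, the ligand of KIT, were higher, by 2.82 and 2.23. CDK2 read 121, 144 and 140.1 against 629, 665 and 639.5 CPM (-2.25 ± 0.06); it lies next to PMEL in the annotation, the strand used in counting is not given in the sources used here, and reads running over from PMEL could not be set apart, so its value is uncertain.

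The promoters of the genes with the smallest p in the melanin and the late melanocyte list are shown because both genes fell together with MITF, which binds the letters CATGTG and also the palindrome CACGTG. Sequences are from RefSeq (GRCh38.p14), run 5′ to 3′ on the gene's strand from 250 bases before to 50 bases after a start site, and have matches on either strand in capitals, to these MITF letters, to the AP-1 site TGANTCA and to the TEAD site GGAATG. No matches overlapped in the windows printed. DCT has 2 start sites in the table, at chr13:94549357-94549656 and chr13:94479633-94479932, and RLBP1 1, at chr15:89221530-89221829, all on the minus strand. The window of DCT at its first site holds CATTCC, the reverse complement of the TEAD letters, starting 176 bases before the start. The window at its second site holds CATGTG starting 134 bases before the start and its reverse complement CACATG at 215 bases before it; the window of RLBP1 holds CACATG at 244 bases before the start.
DCT, first site: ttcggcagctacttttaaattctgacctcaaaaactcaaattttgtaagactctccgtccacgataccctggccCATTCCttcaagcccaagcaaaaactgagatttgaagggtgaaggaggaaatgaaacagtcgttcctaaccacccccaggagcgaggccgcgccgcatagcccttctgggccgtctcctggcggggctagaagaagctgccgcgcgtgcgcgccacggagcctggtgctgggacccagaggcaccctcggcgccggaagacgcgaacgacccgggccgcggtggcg
DCT, second site: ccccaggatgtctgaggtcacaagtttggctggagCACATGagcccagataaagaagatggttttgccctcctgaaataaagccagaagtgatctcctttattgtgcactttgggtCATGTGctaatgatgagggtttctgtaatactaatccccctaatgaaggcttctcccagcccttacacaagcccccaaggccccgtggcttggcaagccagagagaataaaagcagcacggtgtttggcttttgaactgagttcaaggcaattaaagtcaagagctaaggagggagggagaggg
RLBP1: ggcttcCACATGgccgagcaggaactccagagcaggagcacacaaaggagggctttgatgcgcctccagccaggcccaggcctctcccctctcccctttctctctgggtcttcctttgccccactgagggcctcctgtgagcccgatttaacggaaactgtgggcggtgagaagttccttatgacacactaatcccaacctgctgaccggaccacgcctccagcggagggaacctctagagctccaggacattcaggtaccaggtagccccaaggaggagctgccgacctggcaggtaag

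Matrix genes were higher in the high cells. Of 25 tested genes of the fibrillar collagens and their processing 19 were higher and 2 lower (median 0.88), of 20 basement membrane genes 15 and 3 (median 1.3), and of 34 matricellular and adhesive proteins 27 and 4 (median 2.7, against 0.02 over all genes). COL5A1 read 49.6, 41.9 and 51.3 CPM in high and 0.348, 0.163 and 0.379 CPM in low cells (7.36 ± 0.17, adjusted p = 3.41e-22, edgeR) and COL5A2, its partner in type V collagen, 128, 119.5 and 114 against 7.03, 7.83 and 8.14 CPM (3.96 ± 0.09, adjusted p = 3.21e-23, edgeR). PCOLCE, an enhancer of procollagen cleavage, and LOXL2, a collagen cross-linking oxidase, rose by 3.57 and 3.76. CRTAP and PLOD3, which modify procollagen in the endoplasmic reticulum, went the opposite way, with -0.30 and -0.25. FN1, named after its values were seen, encodes fibronectin and read 30400, 27821 and 30260 against 408, 472 and 378 CPM (6.14 ± 0.13, adjusted p = 3.29e-10, edgeR). COL1A2, COL3A1 and FAP, which fibroblasts also express, moved with the matrix genes. Of 12 fibroblast markers 8 were tested, of which 7 were higher and 1 lower. The fibroblast markers THY1, POSTN, MFAP5 and DPT had at most 7 reads in a group, as given with the markers of other cell types.

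Among basement membrane genes, the laminin chain LAMB3 read 135, 122 and 149 against 19.4, 18.3 and 19.6 CPM (2.83 ± 0.08, adjusted p = 6.5e-21, edgeR), and COL15A1, a multiplexin collagen, rose by 2.10. LAMA1 and LAMC3, also laminin chains, were lower, with log2 differences of -0.74 and -1.51, so members of the laminin family moved in both directions. Of the matricellular list, COL6A1 of type VI collagen read 1572, 1372 and 1614 against 130.5, 138 and 140.3 CPM (3.48 ± 0.06, adjusted p = 5.46e-26, edgeR). The proteoglycan biglycan, BGN, read 149, 149 and 183 against 1.11, 1.67 and 1.42 CPM (6.79 ± 0.12, adjusted p = 1.79e-22, edgeR). SPP1 (osteopontin) and TNC (tenascin C) rose by 4.36 and 3.39. FBLN5, an elastic fibre protein, went down from 26.1, 29.1 and 27.7 CPM in low to 3.54, 2.88 and 2.85 CPM in high cells (-3.17 ± 0.12, adjusted p = 6.84e-18, edgeR).

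The receptors for this matrix and the proteases that cut it were mostly higher too. Of 17 integrin chains 13 were higher and 1 lower (median 1.36), and of 34 matrix proteases and their inhibitors 31 were higher and 1 lower (median 1.66). ITGA3, a laminin receptor chain, read 1052, 956 and 979.6 CPM in high and 87.7, 89.9 and 92 CPM in low cells (3.47 ± 0.05, adjusted p = 2.91e-26, edgeR), and ITGB5, ITGA1 and ITGA5 rose by 2.02, 3.97 and 2.26. ITGAV, which pairs with ITGB5, was lower, with a log2 difference of -0.25. The protease inhibitor SERPINE2 read 3266, 3093 and 3231 against 411, 446 and 458 CPM (2.87 ± 0.05, adjusted p = 2.36e-25, edgeR). TIMP3, an inhibitor of metalloproteinases, PLAUR, the urokinase receptor, ADAMTS9 and MMP9 rose by 1.85, 2.91, 2.06 and 5.01, so proteases and inhibitors of proteases were raised together. PLAU, urokinase itself, was lower, at 0.406, 0.443 and 0.19 against 0.766, 1.1 and 1.52 CPM (-1.74 ± 0.49, adjusted p = 0.0039, edgeR).

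The genes with the smallest p among those of the matricellular and the protease list in the promoter table are BGN, at chrX:153494730-153495029 on the plus strand, and SERPINE2, with start sites at chr2:224038591-224038890 and chr2:224031429-224031728 on the minus strand. They are shown to set promoters of raised genes beside those of DCT and RLBP1. The windows of BGN and of the first site of SERPINE2 hold none of the 4 motifs. The second window of SERPINE2 holds 6 matches, 5 of CACATG and 1 of the palindrome CACGTG; the former is also in the printed windows of the lowered genes DCT and RLBP1.
BGN: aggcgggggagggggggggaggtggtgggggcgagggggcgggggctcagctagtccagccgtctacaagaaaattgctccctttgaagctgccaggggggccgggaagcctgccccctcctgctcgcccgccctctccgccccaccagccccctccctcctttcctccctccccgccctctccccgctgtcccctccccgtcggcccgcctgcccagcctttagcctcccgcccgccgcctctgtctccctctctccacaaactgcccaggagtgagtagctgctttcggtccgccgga
SERPINE2, first site: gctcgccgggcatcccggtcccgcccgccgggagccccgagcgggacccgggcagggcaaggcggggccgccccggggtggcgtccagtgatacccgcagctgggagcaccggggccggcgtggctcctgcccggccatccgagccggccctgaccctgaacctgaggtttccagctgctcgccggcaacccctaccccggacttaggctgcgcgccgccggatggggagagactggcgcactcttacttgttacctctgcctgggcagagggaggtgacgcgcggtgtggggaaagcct
SERPINE2, second site: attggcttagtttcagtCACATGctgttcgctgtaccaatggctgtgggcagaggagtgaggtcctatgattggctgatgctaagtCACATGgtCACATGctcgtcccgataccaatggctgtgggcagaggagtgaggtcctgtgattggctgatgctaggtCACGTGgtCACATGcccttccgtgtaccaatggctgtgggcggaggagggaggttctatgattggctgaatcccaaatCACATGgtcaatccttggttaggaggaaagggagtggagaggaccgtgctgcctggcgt

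Genes of the actin cytoskeleton, focal adhesions and the serum response factor were mostly higher, with 28 of 31 called higher and none lower (median 1.29). CAV1, the coat protein of caveolae, read 595, 594 and 598 CPM in high and 59.5, 56.8 and 55.3 CPM in low cells (3.38 ± 0.06, adjusted p = 6.23e-26, edgeR). TPM4 (a tropomyosin), FLNA (filamin A, an actin cross-linker), MYLK (myosin light chain kinase) and TLN1 (talin) rose by 1.91, 1.38, 2.18 and 1.10. Of 23 genes of the YAP and TAZ coactivators and the TEAD factors 17 were higher and 2 lower (median 1.25). NT5E (CD73), AMOTL1 and F3 (tissue factor) rose by 2.54, 1.49 and 2.42, and WWTR1, which encodes TAZ, read 368, 363 and 440.5 against 188, 193 and 189 CPM (1.04 ± 0.06, adjusted p = 1.52e-14, edgeR). The factors themselves differed: TEAD2 and TEAD3 were lower, with log2 differences of -0.84 and -0.37, the latter not called without high replicate 2 or 3, without low replicate 2 or without the libraries over 16% reads on no feature (adjusted p from 0.0629 to 0.145, edgeR).

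Of 20 mesenchymal transcription factors and cadherins 14 were higher and 4 lower (median 0.96). PRRX1 and TWIST1, homeobox and helix-loop-helix factors of mesenchyme, read 254, 241 and 273 against 50.9, 50.2 and 56 CPM and 239.7, 219.9 and 241 against 67.4, 62.4 and 62.7 CPM (2.29 ± 0.06 and 1.87 ± 0.06; adjusted p = 3.73e-21 and 3.29e-20, edgeR). FOXC2, a forkhead factor, read 9.68, 7.91 and 8.16 against 0.0696, 0.0816 and 0.0947 CPM. CDH2 (N-cadherin) rose by 1.29, while CDH3 (P-cadherin) and CDH4 (R-cadherin) fell by 2.69 and 2.31 on the log2 scale. Outside the naming rule, SOX9, a factor of neural crest and cartilage, had 184 reads in the high and 0 in the low libraries, at least 65.25-fold higher against a floor of 3 reads over the group. CDH1 (E-cadherin), also outside it, had 2 reads in high and 59 in low cells, a depth-scaled ratio of 27.7 (exact 95% binomial interval 7.34 to 234.3).

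**Figure D2:**
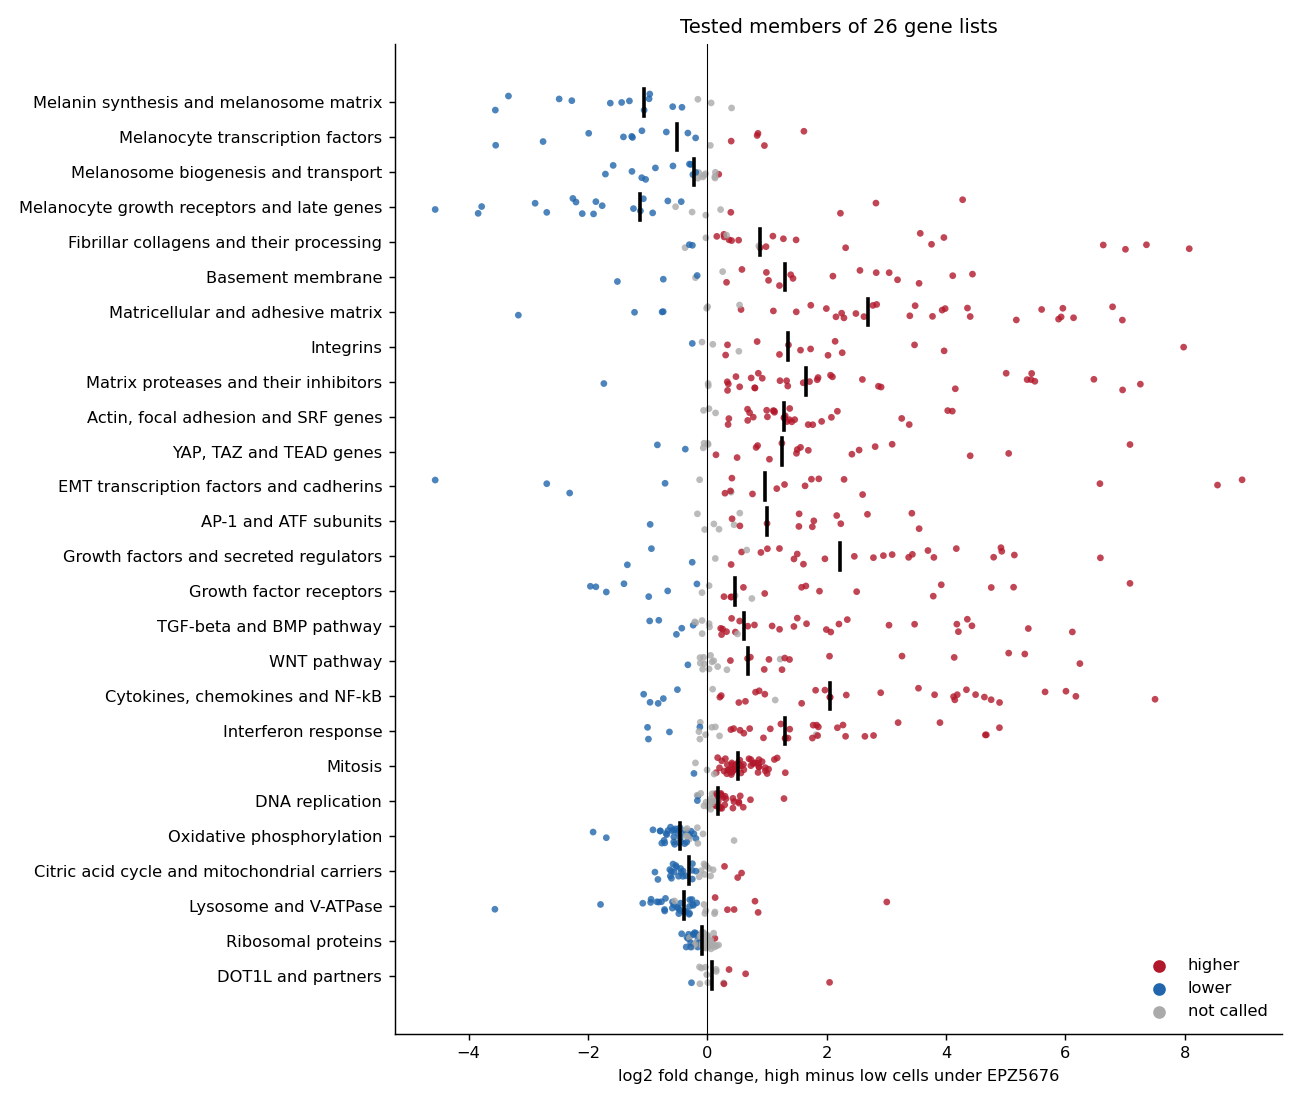
Log2 fold change, high minus low cells under EPZ5676, of every tested member of 26 gene lists; red points were called higher, blue lower and grey not called, and black bars are list medians. Matrix, protease and cytokine lists lie to the right, with members past 6, while oxidative phosphorylation and mitosis differ by less, with medians of -0.46 and 0.51.

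AP-1 is the dimer of FOS, JUN and ATF proteins that follows MAPK signalling. Of 19 subunit genes 12 were higher and 1 lower (median 1). ATF3 read 68.6, 59.5 and 58.9 CPM in high and 4.8, 5.67 and 5.35 CPM in low cells (3.55 ± 0.10, adjusted p = 2.77e-21, edgeR). FOSL1 read 514, 538 and 466 against 99.8, 109.9 and 113 CPM (2.23 ± 0.11, adjusted p = 2.09e-08, edgeR). JUND, BATF3 and JDP2 rose by 1.53, 2.17 and 1.54, and BATF was lower, with a log2 difference of -0.96. Immediate early genes numbered 23 tested, of which 16 rose and 6 fell (median 1.18): IER3, MCL1 (an anti-apoptotic relative of BCL2), KLF6, KLF5 and IER2 rose by 1.73, 1.70, 1.18, 2.64 and 1.12, whereas MYC read 230, 256 and 251 against 592, 568 and 602 CPM (-1.26 ± 0.11, adjusted p = 3.62e-06, edgeR) and NR4A1 fell by 0.76 on the log2 scale.

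Of 24 feedback and output genes of the MAPK pathway 19 were higher and 4 lower (median 0.9). CCND1, the gene of cyclin D1, read 2999, 2765 and 2731 CPM in high and 399, 411 and 401 CPM in low cells (2.81 ± 0.04, adjusted p = 2.91e-26, edgeR). PHLDA1, EPHA2 and PHLDA2 rose by 1.53, 2.50 and 1.02. EPHA4, an ephrin receptor, and ETV4, an ETS factor, fell by 1.70 and 0.76 on the log2 scale, so of the ETS genes ETV1 and ETV4 differed in direction. In the list of the sorted receptors and their kin, ERRFI1, a feedback inhibitor of EGFR, read 572, 566 and 569.5 against 22.1, 26.3 and 22.8 CPM (4.58 ± 0.07, adjusted p = 1.76e-25, edgeR). BDNF, a neurotrophin, rose by 5.28, while SORT1 (sortilin, a co-receptor of NGFR) and ERBB3, a relative of EGFR that melanocytes use, fell by 0.64 and 1.01 on the log2 scale.

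Among 25 other growth factor receptors 14 were higher and 7 lower (median 0.46). PDGFRA read 35.6, 30.3 and 34.8 CPM in high and 1.18, 0.979 and 0.758 CPM in low cells (5.13 ± 0.14, adjusted p = 1.75e-21, edgeR), and PDGFRB 62.4, 51.4 and 65.7 against 1.95, 2.41 and 2.18 CPM (4.76 ± 0.12, adjusted p = 1.97e-20, edgeR). DDR2, a collagen receptor kinase, and FGFR1 rose by 1.65 and 1.58. MERTK fell by 1.40 on the log2 scale while its relative AXL was among the largest increases. Growth factors and other secreted regulators were higher in 23 of 28 and lower in 3 (median 2.22). FGF1 read 47.8, 51.1 and 54.5 against 4.39, 4.04 and 3.5 CPM (3.70 ± 0.10, adjusted p = 2.36e-21, edgeR), and VEGFA, VEGFC, FGF5 and LIF rose by 2.95, 4.17, 4.80 and 1.97. ANGPTL2 and GDF15 were lower, with log2 differences of -1.34 and -0.94.

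In the TGF-beta and BMP pathway 26 of 38 genes were higher and 5 lower (median 0.61). The receptor TGFBR2 read 84.9, 84.8 and 91.7 CPM in high and 20, 19.1 and 17.8 CPM in low cells (2.20 ± 0.07, adjusted p = 4.44e-20, edgeR). LTBP2, a latent TGF-beta binding protein, and the pathway's induced inhibitors SMURF2, SMAD7 and PMEPA1 rose by 4.18, 1.99, 2.34 and 4.36. FSTL1 and BMPR1B were lower, with log2 differences of -0.43 and -0.81. Of 27 WNT pathway genes 14 were higher and 1 lower (median 0.67). The ligand WNT5A read 35.7, 30.8 and 40.8 against 0.557, 0.53 and 0.331 CPM (6.24 ± 0.16, adjusted p = 1.37e-21, edgeR), the receptors FZD8 and FZD1 rose by 4.14 and 1.25 and the secreted inhibitors SFRP1 and DKK3 by 3.26 and 5.32. LEF1, a factor of the canonical pathway, was lower, with a log2 difference of -0.33.

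Notch genes were split, with 9 of 17 higher and 3 lower (median 0.21). The receptor NOTCH3 read 8.12, 5.26 and 7.35 CPM in high and 0.418, 0.0816 and 0.0473 CPM in low cells (5.46 ± 0.34, adjusted p = 2.48e-13, edgeR), and the ligand DLL4 rose by 4.94, whereas the ligand DLL3 fell by 1.85 on the log2 scale. The target HES1 was higher by 1.06 and the target HEY2 lower, with a log2 difference of -1.05. HEY2 was not called without the libraries over 16% reads on no feature (adjusted p = 0.0964, edgeR). Of 41 guidance genes 24 were higher and 9 lower (median 0.46). SLIT2 read 70.2, 64 and 67.8 against 4.18, 3.91 and 4.12 CPM (4.05 ± 0.09, adjusted p = 1.02e-23, edgeR) and its receptor ROBO2 14, 11.3 and 11.7 against 47.8, 53.2 and 52.2 CPM (-2.05 ± 0.08, adjusted p = 1.24e-17, edgeR), so ligand and receptor moved in opposite directions. NRP1, the neuropilin that binds semaphorins and VEGF, rose by 6.96 and SEMA6D fell by 2.17 on the log2 scale.

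Cytokine and NF-kB genes were higher in 28 of 35 and lower in 5 (median 2.05). CSF1, the growth factor of macrophages, read 76.4, 74.6 and 77.1 CPM in high and 4.39, 4.24 and 4.45 CPM in low cells (4.12 ± 0.12, adjusted p = 7.16e-18, edgeR). PTGS2, the inducible cyclooxygenase, read 41.3, 36.8 and 52 against 1.67, 1.59 and 1.94 CPM (4.64 ± 0.15, adjusted p = 6.05e-18, edgeR). IL11, given above, and LIF signal through IL6ST (gp130), whose own RNA rose by 1.58, as did that of OSMR, the oncostatin M receptor, by 1.81. IL6R and NFKBIZ were lower, with log2 differences of -0.96 and -1.07, so the shared signalling chain was raised and the specific receptor chain of IL6 lowered. OSMR is the gene with the smallest p of this list in the promoter table, at chr5:38845762-38846061 on the plus strand; its window holds 1 match to the AP-1 letters, TGATTCA, starting 3 bases after the start site.
OSMR: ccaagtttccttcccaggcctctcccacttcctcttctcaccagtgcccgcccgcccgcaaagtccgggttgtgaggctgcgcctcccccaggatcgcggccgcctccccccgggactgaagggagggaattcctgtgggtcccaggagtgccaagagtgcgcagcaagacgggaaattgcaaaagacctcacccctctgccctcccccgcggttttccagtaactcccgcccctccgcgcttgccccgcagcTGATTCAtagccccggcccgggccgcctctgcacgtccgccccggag

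The interferon response was represented by 39 tested genes, and 27 of them rose and 4 fell (median 1.3). IFIT3 read 51.1, 61.2 and 55.5 CPM in high and 10.4, 13.7 and 12.6 CPM in low cells (2.18 ± 0.09, adjusted p = 1.56e-17, edgeR). IFI44, IFIT2, BST2 (tetherin) and the factor IRF1 rose by 1.83, 2.78, 3.90 and 2.31, while USP18, which dampens interferon signalling, and ISG20 fell by 1.00 and 0.99 on the log2 scale. Antigen presentation was raised in 13 of 25 genes and lowered in 3 (median 0.44). The class I gene HLA-B and the class I coactivator NLRC5 rose by 1.35 and 2.34, and ERAP1, which trims peptides, by 1.06; the class I genes resemble each other, so reads may be split between them. The peptide transporter genes TAP1 and TAP2 were lower, with log2 differences of -0.85 and -0.58. PDCD1LG2, the gene of PD-L2, had 172 reads in high and 2 in low cells, a ratio of 91.5 (exact 95% binomial interval 24.9 to 761.5).

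Cell cycle genes were higher in the high cells by small amounts. Of 53 mitosis genes 49 were higher and 1 lower, with a median of 0.51, and of 43 DNA replication genes 26 were higher and 2 lower, with a median of 0.17. TOP2A, a topoisomerase of dividing cells, read 435, 425 and 469 CPM in high and 212, 214 and 227 CPM in low cells (1.02 ± 0.05, adjusted p = 9.55e-16, edgeR). HJURP, UBE2C, KIF18B and ANLN, which serve centromeres, mitotic exit, the spindle and cytokinesis, rose by 1.17, 1.12, 1.30 and 0.97, and CDC20 was lower, with a log2 difference of -0.23. RRM2, a subunit of ribonucleotide reductase, read 731, 713 and 685 against 293, 291 and 291 CPM (1.28 ± 0.05, adjusted p = 9.78e-19, edgeR); POLD3, TK1, RRM1 and POLA2 rose by 0.72, 0.53, 0.44 and 0.53, and RPA1 and MCM6 were lower, with log2 differences of -0.17 and -0.16. With scaling to library size alone 17 replication genes were higher, and without the libraries over 16% reads on no feature 11; RPA1 was not called in the latter setting (adjusted p = 0.222, edgeR) and MCM6 not without low replicate 2 (adjusted p = 0.0529, edgeR).

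In the list of G1 cyclins, kinases and inhibitors 16 of 24 genes were higher and 5 lower (median 0.45). CDKN1A, the gene of the kinase inhibitor p21, read 78.7, 68.9 and 77.1 CPM in high and 4.87, 5.95 and 4.4 CPM in low cells (3.87 ± 0.12, adjusted p = 7.66e-15, edgeR), and CDKN2C, the gene of p18, rose by 1.42. E2F7, a repressor of the E2F family, rose by 1.42 and CCNG1 was lower, with a log2 difference of -0.69. Under DMSO the medians of the mitosis and replication lists were 0.63 and 0.00. There 47 mitosis genes were higher and 1 lower, whereas 14 replication genes were higher and 14 lower. The test of the difference between the treatments, described below, called a more positive difference under EPZ5676 in 12 of the 43 replication genes. It did so in 2 of the 53 mitosis genes and in 432 of all 17821 genes. High and low libraries did not overlap in 48 of 53 mitosis genes with the high cells above.

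Mitochondrial and lysosomal genes were lower in the high cells, again by small amounts. Of 44 genes of oxidative phosphorylation 33 were lower and none higher (median -0.46), and of 32 genes of the citric acid cycle and the mitochondrial carriers 20 were lower and 3 higher (median -0.31). PPARGC1A and PPARGC1B, coactivators of mitochondrial biogenesis, read 6.73, 7.08 and 6.07 against 25.6, 24.4 and 25 CPM and 9.86, 10.7 and 10.1 against 34.3, 30.7 and 34.6 CPM (-1.92 ± 0.12 and -1.70 ± 0.10; adjusted p = 6.44e-14 and 3.69e-14, edgeR). The cytochrome gene CYC1 and the ATP synthase genes ATP5F1B and ATP5MC3 fell by 0.71, 0.68 and 0.91 on the log2 scale. SLC25A5, SUCLG1, GOT2 and MDH1 fell by 0.62, 0.83, 0.60 and 0.88, while the citrate carrier SLC25A1 and the pyruvate carrier subunit MPC2 rose by 0.29 and 0.57. Genes encoded by the mitochondrial genome had 0 reads in the table and were not tested.

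Of 42 genes of the lysosome and its proton pump 30 were lower and 6 higher (median -0.39). ATP6V0D2 read 4.41, 5.65 and 7.02 CPM in high and 65.4, 70 and 68.3 CPM in low cells (-3.56 ± 0.10, adjusted p = 1.59e-20, edgeR), and ASAH1, the acid ceramidase, 90, 90.3 and 100.5 against 330.3, 315 and 328 CPM (-1.79 ± 0.05, adjusted p = 1.92e-20, edgeR). PSAP, CTSH and CTSD, a sphingolipid activator and cathepsins, fell by 0.85, 1.08 and 0.82 on the log2 scale. CTSB, another cathepsin, and NPC1, the cholesterol transporter, rose by 0.80 and 0.85. Of 56 ribosomal protein genes 15 were lower, 1 was higher and 40 were not called (median -0.09), and RPL5 and RPL8, both in the large subunit, fell by 0.36 and 0.34; values of ribosomal protein genes are uncertain because of near-identical pseudogenes. The number lower ran from 4 without the libraries over 16% reads on no feature to 24 with the 6 EPZ5676 libraries fitted alone.

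Ion channel, neuronal and glial genes were divided between the sorts. Of 31 tested channel genes 15 were higher and 6 lower (median 0.8). KCNN4, a calcium-activated potassium channel, read 85.6, 81.3 and 83.7 CPM in high and 14.1, 14.1 and 12.2 CPM in low cells (2.63 ± 0.07, adjusted p = 5.19e-21, edgeR), and CACNA1H, a T-type calcium channel, 12.9, 10.5 and 11.2 against 93.9, 98.1 and 93.1 CPM (-3.05 ± 0.08, adjusted p = 8.59e-22, edgeR). SCN8A rose by 1.75 and KCNN2, a relative of KCNN4, fell by 2.89 on the log2 scale. Neuronal genes were higher in 11 of 21 and lower in 7 (median 0.35), with NCAM1, L1CAM and SNAP25 higher by 1.26, 0.73 and 4.52 and SYT7 lower, with a log2 difference of -3.82. Of 22 glial and Schwann cell precursor genes 10 were higher and 10 lower (median 0.05): AQP1 was among the raised ones, and the nuclear receptor RXRG and the myelin gene CNP fell by 1.79 and 0.92.

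Among intermediate filaments, annexins and S100 proteins 19 of 25 genes were higher and 2 lower (median 0.9). ANXA2 read 646, 652 and 578 CPM in high and 196, 208 and 202 CPM in low cells (1.63 ± 0.05, adjusted p = 1.04e-19, edgeR). S100A3, S100A16, VIM (vimentin) and SYNM (synemin) rose by 4.54, 1.19, 0.76 and 1.01. S100B, the S100 protein used as a melanoma marker, and ANXA7 were lower, with log2 differences of -0.66 and -0.33. In the list of retinoid and nuclear receptors 11 of 23 were higher and 3 lower (median 0.25), with the vitamin D receptor VDR at 32.4, 30.1 and 29 against 5.85, 4.24 and 4.55 CPM (2.67 ± 0.13, adjusted p = 3.88e-16, edgeR) and RARG, NR2F1 and THRB higher by 1.33, 4.05 and 2.54.

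Genes tied to the inhibited enzyme had mostly small differences. Of 14 tested members of the DOT1L complex and its elongation partners 4 were higher, 1 was lower and 9 were not called (median 0.08). ELL2, an elongation factor, read 38.5, 45 and 33.9 CPM in high and 10.2, 9.91 and 8.38 CPM in low cells (2.05 ± 0.12, adjusted p = 5.76e-13, edgeR), while AFF1, AFF3 and AFF4 differed by 0.36, 0.28 and -0.27. AFF1, AFF3 and AFF4 were not called without the libraries over 16% reads on no feature (adjusted p = 0.192, 0.12 and 0.242, edgeR), and AFF3 not without low replicate 3 (adjusted p = 0.0636, edgeR). Of 34 HOX, MEIS and PBX genes 5 were higher and 7 lower, or 3 lower without those libraries (median -0.09), with MEIS3 and PBX3 higher by 1.83 and 0.94 and HOXB9 and HOXD13 lower, with log2 differences of -1.15 and -0.73. Of 39 other histone lysine methyltransferases and demethylases 15 were higher and 12 lower (median 0.07). PRDM8 read 35, 29.1 and 29.8 against 0.487, 0.897 and 1.23 CPM (5.09 ± 0.16, adjusted p = 3.15e-20, edgeR), NSD2, which methylates lysine 36 of histone H3, rose by 0.87, and KDM5B, PRDM7 and KDM1A fell by 1.06, 2.85 and 0.56 on the log2 scale.

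A list of 18 markers of rare resistant melanoma cells, known from published work on melanoma lines, was higher in 17 and lower in 1 (median 3.1). The list holds NGFR and EGFR themselves and its markers were found in cells of this kind, so its direction is no independent evidence. VEGFC read 43.5, 47.6 and 38.9 CPM in high and 1.95, 2.81 and 2.27 CPM in low cells. VGF, a secreted neuropeptide precursor, was the exception, at 2909, 2636 and 2923 against 5302, 5788 and 4988 CPM (-0.93 ± 0.08, adjusted p = 2.32e-06, edgeR), and under DMSO it read 3485, 4019 and 3226 against 3769, 3752 and 3925 CPM with overlap. The difference of VGF between the treatments was -0.83 ± 0.11 (adjusted p = 0.00228, edgeR), which was not called with all 18 libraries in the fit (adjusted p = 0.147, edgeR).

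Markers of other cell types were looked at in the same way. Of 12 fibroblast markers 8 were tested, and 7 were higher in the high cells (median 5.88, or 5.13 with a gene at 0 in low cells set to its bound); they include COL1A2 at 108, 101 and 101 against 0.766, 1.06 and 0.521 CPM, FAP at 29.2, 24 and 26.5 against 0.0696, 0.0816 and 0.426 CPM and DCN at 22.6, 20.4 and 21.9 against 3.06, 3.18 and 3.22 CPM. LUM was lower, with a log2 difference of -0.76. The summed level of the 12 markers ran from 649 to 799.4 CPM in the high and from 99.42 to 101.9 CPM in the low libraries. THY1, another fibroblast marker, had 7 reads in high and 4 in low cells, and POSTN, MFAP5 and DPT had 6 reads or fewer in either group. Keratinocyte markers other than KRT10 had at most 12 reads in a group, and KRT1 had 0. The endothelial marker PECAM1 and the leukocyte marker CD163 were at 0 in all 6 libraries, while CSF1R, the receptor of CSF1, read 7.54, 5.92 and 5.31 against 0.209, 0.367 and 0.189 CPM. Of 10 endothelial markers 6 were tested, of which 2 were higher, 1 was lower and 3 were not called. The endothelial markers VWF and ESAM were higher by 1.08 and 1.30 (ESAM was not called under 11 of the alternatives tried). EGFL7 was lower, with a log2 difference of -0.93. The summed level of all 10 endothelial markers ran from 27.62 to 30.49 CPM in high and from 36.09 to 37.67 CPM in low libraries. Of 12 leukocyte markers 4 were tested, of which 1 was higher and 3 were not called (median -0.43). Without overlap, 1 stood above and 2 stood below in the high cells. Summed over all 12, leukocyte markers ran from 9.2 to 11.9 CPM against 4.32 to 6.24 CPM, so the sum does not show the direction of most tested markers.

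The high-low difference under EPZ5676 was then set beside that under DMSO. The 2 differences share no library, but they come from 1 fit with the same estimate of each gene's spread, so their calls are not independent. Of the 9173 genes called under EPZ5676, 8123 (88.6%) were called the same way under DMSO and 18 the opposite way. Over all 17821 genes tested, 5487 were called higher and 4951 lower under DMSO. Of the 10438 genes called under DMSO, 77.8% were called the same way under EPZ5676, where 27.2% of all genes tested were higher and 24.3% lower. The test of the difference between the treatments called 863 genes (4.84% of those tested). Of the 826 of these that were called under DMSO, 771 had a smaller absolute difference under EPZ5676. With all 18 libraries in the fit 58 genes were called, and without the libraries over 16% reads on no feature 218. Of the 93 genes named in the text with such a call, 87 lost it with all 18 libraries, which add the unsorted cells to the estimate of the spread, and 46 without the libraries over 16%; none changed direction. MBP, ETS1, HMOX1, ITGA7 and SPARC, described next, kept the call in both fits, while COL6A1, LIF, BIN1, DCT and LAMA1 lost it with all 18 libraries (adjusted p from 0.0868 for LAMA1 to 0.604 for COL6A1, edgeR), at unchanged differences.

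COL6A1 read 2862, 2953 and 2782 CPM in the high and 110.7, 109.5 and 105.2 CPM in the low cells under DMSO, so its difference of 4.72 there was larger than the 3.48 under EPZ5676 (difference of differences -1.24 ± 0.07, adjusted p = 2.04e-11, edgeR). In COL6A1, LIF and BIN1 the high cells read higher and the low cells lower under DMSO than under EPZ5676. LIF had 119.5, 123 and 111 against 8.49, 8.88 and 10.1 CPM under DMSO and 78.2, 73.2 and 76.6 against 19.4, 20.8 and 17.9 CPM under EPZ5676 (-1.71 ± 0.10, adjusted p = 3.01e-11, edgeR). BIN1, a membrane-bending protein, read 88, 94 and 83.5 against 4.68, 5.64 and 4.42 CPM under DMSO and 46.5, 41.1 and 49.4 against 8.56, 10.2 and 8.14 CPM under EPZ5676 (-1.83 ± 0.14, adjusted p = 4.32e-09, edgeR). The myelin basic protein gene MBP was higher in high cells under DMSO, with 493, 481 and 467 against 241, 244 and 222 CPM. Under EPZ5676 its libraries overlapped, with 325, 306 and 336 against 332, 328 and 326 CPM (-1.06 ± 0.07, adjusted p = 9.04e-11, edgeR). ITGA7, an integrin chain of laminin receptors, differed by 1.51 under DMSO and by 0.30 under EPZ5676.

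DCT, HMOX1, ETS1, SPARC and LAMA1 read lower in high cells under DMSO, with a smaller difference under EPZ5676. DCT read 62.1, 56.2 and 57.6 against 1081, 1003 and 1052 CPM under DMSO, a difference of -4.16 against -3.33 under EPZ5676 (0.82 ± 0.07, adjusted p = 5.13e-08, edgeR); DCT read higher under EPZ5676 in both sorts, a comparison that was not tested. HMOX1, the haem oxygenase, read 29.8, 28.2 and 30.6 against 59.7, 61.8 and 65.9 CPM under DMSO and 50.7, 57.3 and 44.1 against 59.4, 62.5 and 59.3 CPM under EPZ5676 (0.83 ± 0.11, adjusted p = 2.18e-05, edgeR). The transcription factor ETS1 read 157, 162 and 166 against 278, 275 and 274 CPM under DMSO and 231, 236 and 213 against 257, 243 and 250.2 CPM under EPZ5676 (0.62 ± 0.07, adjusted p = 1.82e-06, edgeR). SPARC, a collagen-binding matrix protein, had a difference of -0.48 under DMSO and of 0.00 under EPZ5676, where its libraries overlapped. The high-low call under EPZ5676 was lost without the EPZ5676 high replicate 3 for ETS1 (-0.10, adjusted p = 0.108, edgeR) and HMOX1 (-0.16, adjusted p = 0.0752, edgeR), for ETS1 also without the EPZ5676 low replicate 1 (-0.13, adjusted p = 0.0609, edgeR), and for ITGA7 without the libraries over 16% (0.33, adjusted p = 0.0638, edgeR). LAMA1 differed by -1.27 under DMSO and by -0.74 under EPZ5676.

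**Figure D3:**
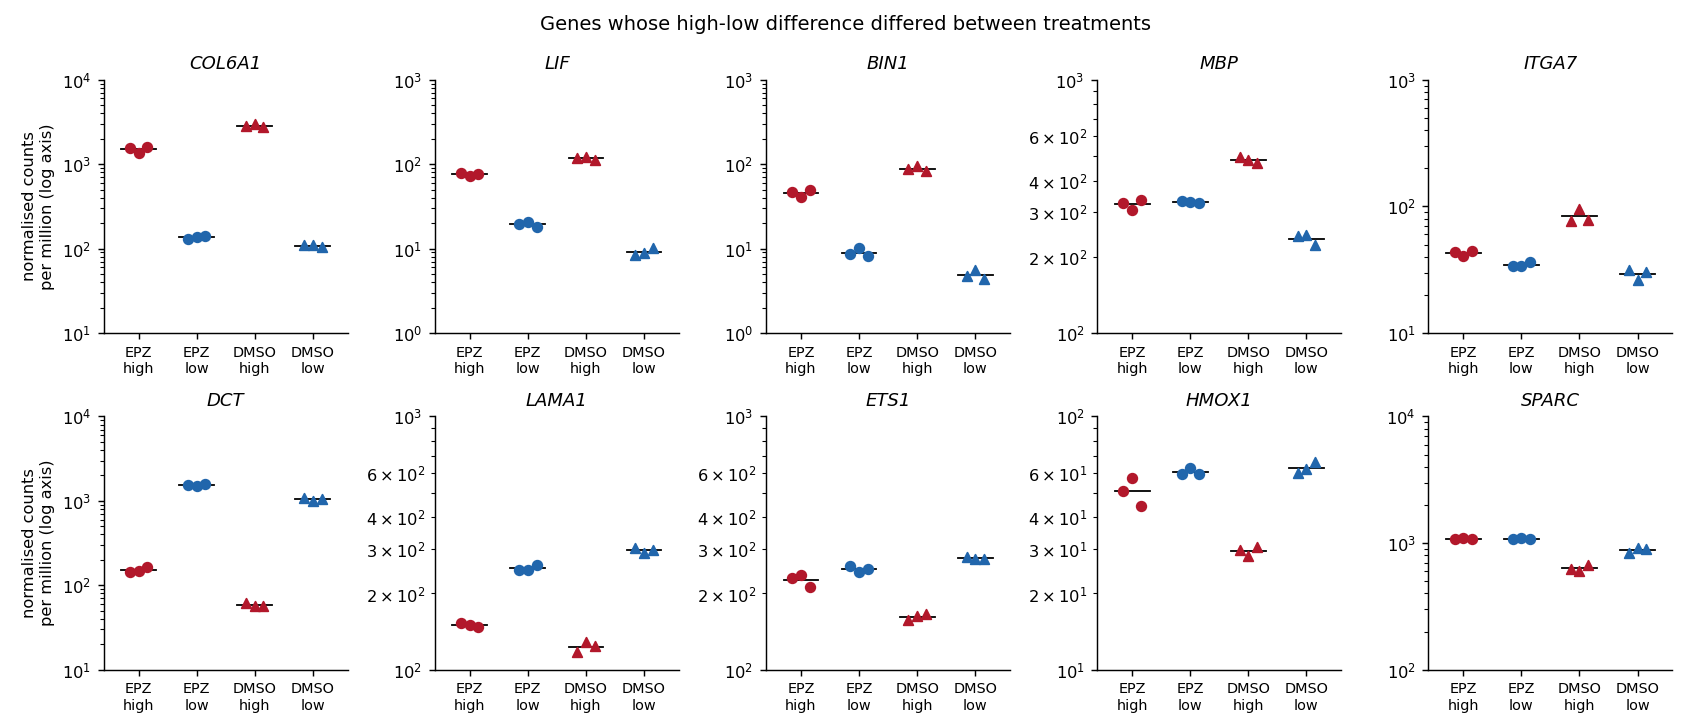
Normalised counts in CPM (log axis) of the 5 genes per direction with the smallest p for a difference between treatments; circles are EPZ5676 (labelled EPZ) and triangles DMSO libraries, red high and blue low, lines are group means. In MBP and SPARC the high and low libraries overlap under EPZ5676 and are apart under DMSO.

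Of the sorted receptors, NGFR differed by 9.16 under DMSO and by 7.52 under EPZ5676, a difference between the treatments that was not called (-1.64 ± 0.76, adjusted p = 0.33, edgeR). EGFR read 84.7, 72.7 and 68 against 2.24, 2.64 and 3.44 CPM under DMSO, and its difference of 4.75 there was larger than under EPZ5676 (-0.99 ± 0.18, adjusted p = 0.00173, edgeR), again not called with all 18 libraries (adjusted p = 0.533, edgeR). As no gate is given, the stringency of the sort and the treatment cannot be told apart in this comparison. Medians of gene lists were -1.45 under DMSO against -1.06 under EPZ5676 for melanin synthesis, 3.43 against 2.7 for matricellular proteins, 1.81 against 1.66 for matrix proteases, 2.5 against 2.05 for cytokines and -0.5 against -0.46 for oxidative phosphorylation. Whether these medians differ was not tested.

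**Figure D4:**
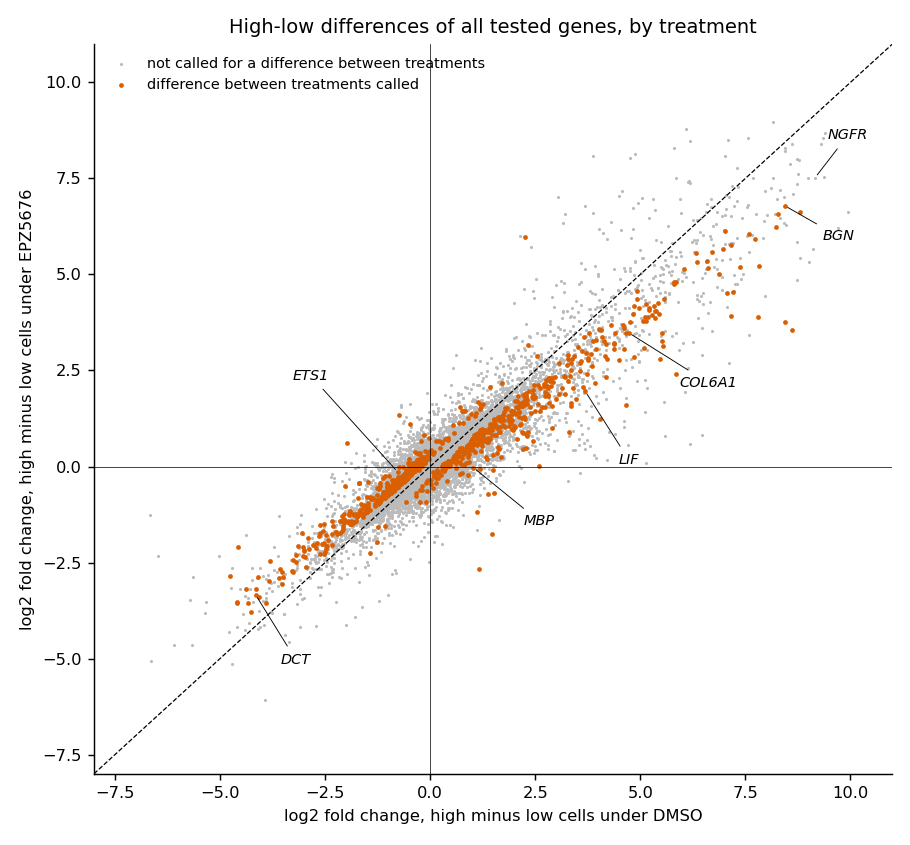
Log2 fold change of high over low cells under DMSO (horizontal axis) and under EPZ5676 (vertical axis) for the 17821 genes tested; orange points are the 863 genes called for a difference between treatments and the dashed line marks equal differences. Most orange points lie nearer to 0 under EPZ5676 than under DMSO.

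The letters searched in the printed promoters were counted in the 16543 windows of the 11346 tested genes that the table holds, and in all of its 35116 windows. TGANTCA was in 5.44% of the windows of tested genes (7.71% of all windows), in 9.62% for genes at least 2-fold higher in high cells and 11.9% for those at least 4-fold higher, in 7.9% and 7.01% for genes lower by the same limits, and in 4.41% for genes not called. CATGTG was in 7.77% of the windows of tested genes (11.1% of all), in 9.77% and 9.79% for the higher genes, in 11.7% and 15.9% for the lower genes and in 7.66% for genes not called. CACGTG was in 9.13% (7.26% of all), in 5.51% and 3.87% for the higher genes, in 10.6% and 10.7% for the lower genes and in 9.43% for genes not called. GGAATG was in 11.5% (14% of all), in 13.8% and 15.2% for the higher genes, in 12.5% and 14.5% for the lower genes and in 11.2% for genes not called. Each motif was searched on both strands, a gene can have several windows, these shares carry no test, and a match says nothing of binding.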

How the data were processed

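Poly(A) RNA of WM989 cells was sequenced paired-end. The deposited table holds whole read counts per Ensembl gene, made by the authors with STAR, HTSeq and the hg19 build, per the submitters' processing notes; versions and strand setting are not given in the sources used here. The 5 summary lines of the counter were left out of library sizes and tests. Of 63677 genes, 345 were named from GENCODE 29 only and 11151 had no name there or in the current names (0.922% of reads). The 6 EPZ5676 libraries were compared in edgeR 4.0.16 (R 4.3.3) with TMM scaling, filterByExpr and a robust quasi-likelihood fit over 12 sorted libraries; SE is the difference divided by the square root of F. Alternatives used limma 3.58.1 and DESeq2 1.42.0. The fit was tested on simulated counts. Named genes are NGFR, EGFR and DOT1L, the 15 with the largest difference per direction (at least 5 CPM, no overlap), up to 5 called members per list with the smallest p plus up to 2 against its majority, and 5 per direction for the difference between treatments. The gene lists and members were chosen with earlier results of these data known. Some named genes are not reported here. List medians with genes at 0 in low cells set to their bound equal the others except for fibroblasts.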

Additional observations from a re-analysis of the deposited data

Results flagged for a closer look

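The following genes named in the text differ between the treatments: the high minus low log2 difference under EPZ5676, minus the same difference under DMSO, was called by the test of that difference itself in edgeR (adjusted p under 0.05). Of all genes tested 863 were called so, and 58 with all 18 libraries in the fit. Of the 93 named here, 87 were not called in that fit and 46 not without the libraries over 16% reads on no feature; BCL2L11, ETS1, HMOX1, ITGA7, MBP and SPARC were called with all 18. No explanation was tested.

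Among genes that were higher in high cells under DMSO and differed by less under EPZ5676, the difference of differences was -1.24 for COL6A1, -1.71 for LIF, -1.06 for MBP, -1.83 for BIN1, -1.20 for ITGA7, -1.32 for SLIT2 and -0.94 for FZD1. The next values were -0.93 for LAMB3, -0.47 for CCND1, -0.76 for VEGFA, -0.68 for ETV1, -0.71 for TGFBR2, -0.60 for FGFR1 and -0.61 for COL15A1. Then came -1.64 for BGN, -0.86 for COL5A2, -1.48 for CDKN1A, -0.68 for S100A16, -0.85 for EPHA2, -0.52 for MCL1 and -0.91 for MEIS3. Next in order of p were -0.68 for CFLAR, -0.88 for SFRP1, -0.62 for KCNN4, -0.58 for CDKN2C, -0.88 for FGF1, -0.99 for EGFR and -1.05 for PDGFRB. Further values were -1.99 for WNT5A, -0.35 for TIMP3, -1.16 for VEGFC, -0.98 for NLRC5, -0.28 for L1CAM, -0.32 for ITGA3 and -1.21 for PMEPA1. It was also -1.05 for VWF, -0.45 for PCOLCE, -0.84 for CSF1, -0.89 for FN1, -1.87 for MMP9, -0.59 for IRF1 and -0.25 for PHLDA1. The remaining values include -2.54 for SNAP25, -0.56 for SPP1, -2.66 for S100A3, -0.27 for CAV1, -1.30 for NR2F1, -0.68 for LTBP2 and -0.40 for IER2. Last were -0.52 for ATF3, -0.90 for PDGFRA, -0.27 for SQLE, -0.36 for PLAUR, -1.05 for FGF5 and -1.29 for BST2.

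Among genes that were lower in high cells under DMSO and differed by less under EPZ5676, the difference of differences was 0.82 for DCT, 0.62 for ETS1, 0.53 for LAMA1, 0.83 for HMOX1, 0.49 for SPARC, 0.53 for SLC7A5 and 0.71 for MLANA. The next values were 1.02 for ATP6V0D2, 0.74 for ROBO2, 0.42 for PRDX1, 0.53 for SOX6, 0.36 for PMEL, 1.91 for PRDM7 and 0.39 for CTSH. Then came 0.34 for GOT2, 0.29 for MCM6, 0.36 for MITF, 0.73 for HRK, 0.35 for GDF15, 0.62 for CEACAM1 and 0.48 for RLBP1. Next in order of p were 0.47 for CACNA1H, 0.24 for SLC25A5, 1.08 for CFAP61, 1.20 for KCNN2, 0.77 for POU3F1, 0.55 for BMPR1B and 0.35 for SLC45A2. Further values were 0.50 for IRF4.

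Among genes with a positive value under DMSO and a larger size under EPZ5676, the difference of differences was 0.45 for ANXA2, 0.65 for ADAMTS9, 0.31 for SERPINE2, 0.30 for PMAIP1 and 0.46 for IFIT3.

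Among genes with a negative value under DMSO and a larger size under EPZ5676, the difference of differences was -0.83 for VGF, -0.57 for BCL2L11, -0.42 for NR4A1 and -0.34 for RAB27A.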

How the results depend on the processing

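Counts of genes higher and lower in high cells stayed within 1.5 times the 4840 and 4333 reported under each alternative tried: DESeq2's size factors (RLE) in edgeR, library size alone, no filter, a mean of at least 5 CPM, DESeq2, limma-voom, a fit that is not robust, all 18 libraries, the 6 libraries alone, the no-feature share as covariate or class, without the libraries over 16% no feature, and each replicate left out. The fit without the libraries over 16% keeps replicate 3 as the only EPZ5676 high library. Calls kept or lost in that fit therefore rest on a group without replicates. Among the other alternatives the lowest pair was 3734 and 3530, with a mean of at least 5 CPM. The 863 genes that differed between treatments became 58 with all 18 libraries and 218 without those over 16%; leaving out 1 EPZ5676 library gave 497 to 693, with 497 without high replicate 2, 523 without low replicate 2 and 572 without low replicate 3. The reported fit had left out the unsorted libraries with it known that a DMSO one stands between the sorts, as given above. What lowered each of these counts was not tested. The 6 libraries alone give no test between treatments. With the replicate number as a block 4815 genes were higher, 4305 lower and 780 differed between treatments. Same-numbered high and low libraries did not deviate together throughout (correlations 0.191, -0.12 and 0.305 under EPZ5676), not every library correlated best with its own number, and the labels tie nothing to the numbers. Under EPZ5676, high-low pairs with both or neither library over 16% reads on no feature correlated at 0.191 to 0.305. Pairs with only 1 library over 16% correlated at -0.393 to -0.112. Deviations were taken from the mean of each group, so they cancel within a group and these correlations depend on each other. The pairs are thus not separate observations, and a link with that share was not tested. Of 308 high-low differences of named genes 15 lost their call under at least 1 alternative. Of 93 differences between treatments 88 did, 34 of them under an alternative other than the fits with 18 libraries or without those over 16%. None of either kind reversed. Of 102 counts of list members higher or lower, 29 moved under at least 1 setting, the fit without those over 16% among them. Moved means by more than 1.5 times, or between 0 and any other count. With library size alone 12 moved, and with a mean of at least 5 CPM 11. Genes under a few reads are limited by depth.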

Other observations

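Genes of stress and cell death were divided. Of 24 targets of p53 13 were higher and 6 lower in the high cells (median log2 difference 0.20), and of 29 members of the BCL2 family and other death regulators 14 and 7 (median 0.22). PMAIP1, the gene of the pro-apoptotic protein NOXA, read 149.8, 160.4 and 150 CPM in high and 53.3, 53.2 and 56.8 CPM in low cells (log2 difference 1.5 ± 0.06, adjusted p = 4.61e-18, edgeR), and FAS, a death receptor, rose by 2.46. The inhibitors of apoptosis BIRC3 and CFLAR rose by 4.34 and 1.43. The pro-apoptotic genes BBC3 (PUMA), BCL2L11 (BIM) and HRK went the opposite way to PMAIP1, with -0.68, -0.64 and -2.04.

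Metabolic lists beyond the mitochondrion had members in both directions. Of 32 glycolysis and hypoxia genes 13 were higher and 13 lower (median 0.02), the latter 8 without the libraries over 16% reads on no feature. The lactate transporters SLC16A1 and SLC16A3 had opposite differences of -1.04 and 0.75. In sterol and fatty acid synthesis 15 of 33 were higher and 8 lower (median 0.19): SQLE, MSMO1 and INSIG1 of the sterol branch rose by 0.82, 0.92 and 1.11, and FASN, the fatty acid synthase, read 1375, 1193 and 1468 against 2572, 2571 and 2556 CPM (-0.93 ± 0.05, adjusted p = 9.98e-14, edgeR). Amino acid response and ER stress genes were lower in 17 of 34 and higher in 8 (median -0.15; 10 and 4 without those libraries), with the transporter SLC7A5 at 151, 159 and 153 against 368, 349.6 and 403 CPM (-1.27 ± 0.05, adjusted p = 4.11e-17, edgeR) and the serine synthesis genes PSAT1 and PHGDH at -0.92 and -0.63. Of 30 antioxidant genes 13 were lower and 7 higher (median -0.13); PRDX1, a peroxiredoxin, read 536, 569.9 and 551 against 2347, 2399 and 2192 CPM (-2.07 ± 0.05, adjusted p = 7.6e-22, edgeR), and NQO1 rose by 0.76.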
